A study of Mus musculus with 8 samples.

Results

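The 41 genes described here encode the proteins that license, start and carry out DNA replication, enzymes that supply its deoxynucleotides, and 4 regulators of the entry into S phase. They were listed by symbol and function. A gene was read from probe sets that the array annotation assigns to exactly 1 symbol, taking the probe set with the highest mean over all arrays. All 41 were measured, out of 18193 genes, through 93 probe sets in all: 8 members had 1 probe set and 33 had several. The members comprised 11 licensing factors, 4 factors of helicase activation, the sliding clamp with 5 clamp loader subunits, 7 polymerase and primase subunits, 4 single-strand binding and Okazaki fragment proteins, 5 nucleotide enzymes and the 4 S phase regulators.

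The study compared macrophages grown from mouse bone marrow with macrophage colony-stimulating factor (M-CSF), a growth factor on which these cells depend. Cells were Tpl2 wild type or Tpl2 KO, called Tpl2-deficient here, and were either left unstimulated or given LPS of Escherichia coli at 1 μg/mL. Tpl2 is the kinase encoded by Map3k8, which activates the MEK and ERK kinases downstream of Toll-like receptors, and LPS is the bacterial ligand of Toll-like receptor 4. Each of the 4 groups had 2 Affymetrix arrays. All groups shared the M-CSF culture and the selection of adherent cells. The duration of LPS, the deleted stretch of the gene, the strain background and the age of the mice are not given for these arrays in the sources used here. The paired arrays are called biological replicates without mention of separate animals, so the p-values cover only the spread within these pairs, which may be technical. Values are log2 intensities. Arrays have no read depth, and their number limits the precision. Differences are log2 values ± standard error from limma fitted to all 8 arrays, and the threshold was an adjusted p under 0.05 (Benjamini-Hochberg, all 18193 genes together).

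In each cell cycle, the origin recognition complex, Cdc6 and Cdt1 load the Mcm2-7 helicase onto replication origins, a step called licensing. Cyclin-dependent and Dbf4-dependent kinases then turn the helicase on by adding Cdc45 and the GINS complex, after which polymerases alpha, delta and epsilon copy the strands with the help of the clamp Pcna and its loader, replication factor C. E2F transcription factors drive many of these genes late in G1 phase, when cyclin D and cyclin E kinases have inactivated the retinoblastoma proteins. Macrophages in M-CSF proliferate, and LPS is known to stop that proliferation.

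LPS lowered most of the replication genes in both genotypes, and it raised a small subset that included cyclin E1, Mcm10 and Rfc3. In wild-type cells 25 of 41 members fell and 4 rose, while 30.9% of all genes were lower and 21.3% higher at the same threshold. Tpl2-deficient cells had 22 members that fell and 6 that rose, against 25.8% and 16% of all genes. The median difference over the members was -0.76 in wild type, where that over all genes was 0.04. It was -0.41 in Tpl2-deficient cells, where that over all genes was 0.00. Of the members, 21 were lower with LPS in both genotypes (23.2% of all genes were), 3 were higher in both (11.4% of all genes), and 0 had calls of opposite direction. In wild type the LPS arrays of 30 members both lay under both unstimulated arrays, a pattern seen in 39.2% of all genes. A fall of at least 2-fold that passed the test was found for 14 members in wild type (11.6% of all genes) and for 11 in Tpl2-deficient cells (8.52% of all genes). In RNA from whole cultures, fewer cycling cells and less RNA per cell cannot be told apart.

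**Figure D1:**
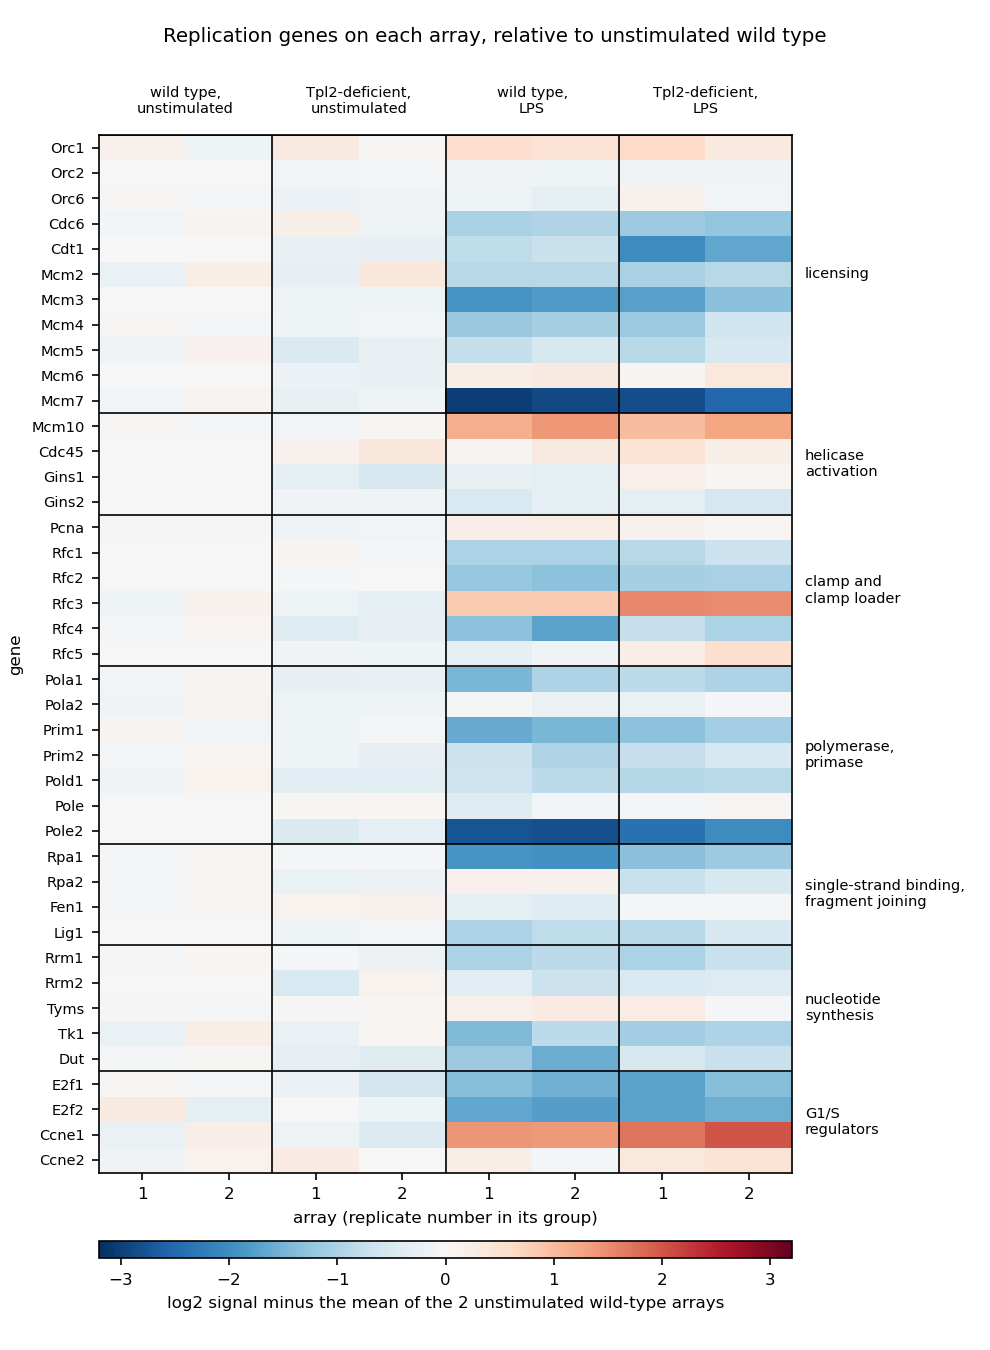
Each row is 1 of the 41 members, in order of role, and each column 1 of the 8 arrays. Colour is the log2 difference from the mean of the unstimulated wild-type arrays. The LPS columns are mostly below 0, with Mcm7 and Pole2 lowest in wild type, while Ccne1, Mcm10 and Rfc3 stand above 0.

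Beside these shifts, the scale of the arrays and both signs of RNA integrity also differed between groups. Centring every array on the hybridisation spike-ins moved the median LPS difference over all genes to -0.09 in wild type and -0.20 in Tpl2-deficient cells. The split of the members then became 28 lower and 3 higher in wild type, and 26 lower and 3 higher in Tpl2-deficient cells. The 3′ to 5′ difference of the actin probe sets was 0.74 ± 0.10 (SD, n = 2) and 0.88 ± 0.03 in unstimulated wild-type and Tpl2-deficient cells, and 0.51 ± 0.06 and 0.65 ± 0.05 with LPS. The same difference for Gapdh was 0.03 ± 0.09 and 0.07 ± 0.01 in unstimulated wild-type and Tpl2-deficient cells, and -0.08 ± 0.01 and 0.08 ± 0.03 with LPS. For Gapdh, the LPS-treated wild-type arrays (-0.09 and -0.07) both lay under the LPS-treated Tpl2-deficient ones (0.05 and 0.10). The part of array scale and RNA integrity in the member values was not tested. The LPS-treated Tpl2-deficient arrays were the most variable: the median SD over members was 0.15 there, against 0.10 in the LPS-treated wild type and 0.06 in both unstimulated groups. Map3k8 itself was lower in Tpl2-deficient cells, 2.00-fold both without LPS (limma adjusted p = 0.00237) and with it (adjusted p = 0.000125). Whether its probe set lies within the deleted stretch is not known here. The files hold no detection calls. Where the lower group mean lay under the median of its arrays, which ranged from 6.48 to 6.53, a fold is written with "at least". These words mark a low level beside the estimated fold. They are not a confidence bound, and the median is not a detection limit. On the probe sets used, such a low mean was found in all 4 groups for Cdc6, Rrm2, Tyms and Ccne2, in some groups for Rfc4, Pola1, Prim1, Pole2 and Dut, and in none for the other 32.

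As for cell identity, all 11 measured macrophage markers lay above the array medians in every group. Of 10 progenitor markers, 6 lay under the medians in every group, and Kit, Cd34, Flt3 and Gata2 lay above them in at least 1. The mean log2 level of all 10 ranged from 6.05 to 6.15 over the groups. Kit, the stem cell factor receptor, had 6.87 and 6.79 in unstimulated wild type, 6.24 and 6.18 in unstimulated Tpl2-deficient cells, and at most 5.44 in any LPS array. It fell at least 2.94-fold with LPS in wild type (-1.55 ± 0.12, limma adjusted p = 7.55e-07), and the difference in Tpl2-deficient cells (-0.80 ± 0.12, adjusted p = 0.000194) lay between 2 means under the medians. Cd34 fell too (-0.83 and -0.85), and the list as a whole did not: 2 of 10 fell and 2 rose in wild type, with 7 of 10 differences above 0 and a median of 0.11, and 2 fell and 1 rose in Tpl2-deficient cells, with 6 of 10 above 0. All 5 mast cell markers lay under the medians in every group. So did 4 of 7 measured neutrophil, 3 of 7 dendritic, 2 of 6 T and NK cell, 4 of 6 B cell, 3 of 4 erythroid and 2 of 8 stromal markers. Above the medians in every group lay 3 neutrophil, 3 dendritic, 3 T and NK cell, 0 B cell, 1 erythroid and 5 stromal markers. The neutrophil list had the mean 6.72 ± 0.06 (SD, n = 2) and 7.18 ± 0.10 in unstimulated and LPS-treated wild type, and 6.70 ± 0.03 and 6.92 ± 0.03 in unstimulated and LPS-treated Tpl2-deficient cells. The stromal list had the mean 6.79 ± 0.02 and 7.23 ± 0.02 in wild type and 6.84 ± 0.52 and 7.29 ± 0.13 in Tpl2-deficient cells, in the same order. Its 1 member that rose with LPS was Pdgfrb, the receptor for platelet-derived growth factor, which came from under the medians (at least 3.84 and 4.95 on the log2 scale) and was also higher in Tpl2-deficient cells under LPS (1.203, limma adjusted p = 0.015). The macrophage list was split, with 4 of 11 up and 3 down after LPS in wild type, and 4 up and 5 down in Tpl2-deficient cells. Of the 7 neutrophil markers, 5 rose and 1 fell in wild type, and 2 rose and 1 fell in Tpl2-deficient cells. These counts and those of the progenitor list stand against all genes. Of those, 21.3% rose and 30.9% fell in wild type, and 16% rose and 25.8% fell in Tpl2-deficient cells. The part of other cells in the member values was not tested.

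Promoter windows of the members were examined because most of these genes moved together and many are known E2F targets. RefSeq windows on build GRCm38.p6, from 250 bases before to 50 after a transcription start, were found for 34 of the 41 symbols. An E2F-type motif was searched on both strands in 4 spellings, TTTCCCGC, TTTCGCGC, TTTGCCGC and TTTGGCGC, some of which overlap when read from opposite strands. It was present in 13 of the 34 members (38.2%), compared with 3.81% of the 14453 measured genes with a window and 2.6% of all 27025 genes with one. The 13 were Orc1, Cdc6, Cdt1, Mcm3, Mcm5, Mcm6, Mcm7, Rfc3, Pola1, Pold1, Pole2, Lig1 and E2f2. With LPS in wild type 10 of them fell and 2 rose, with a median of -0.90, where 30.9% of all genes fell and 21.3% rose. Of the 21 members whose window lacked these letters, 11 fell and 2 rose, with a median of -0.34. In Tpl2-deficient cells 9 of the 13 fell and 2 rose (median -0.66), and 9 of the 21 fell and 3 rose (median -0.26). Of all genes, 25.8% fell and 16% rose there. Members with and without a match were not tested against each other. The LPS changes of other genes with a match were not computed. The genotype difference under LPS had a median of 0.08 with and without a match. The CCAAT letters, also on both strands, were in 20 of 34 members (58.8%), compared with 42% of measured genes. These matches describe letters and are not evidence of binding. The stretches below, 180 bases that end just before the start, were chosen after the values were seen and are those of 2 members that fell with LPS in both genotypes, Mcm7 and Pola1, and of 2 that rose, Mcm6 in Tpl2-deficient cells and Rfc3 in both. They are given 5′ to 3′ on the strand of the gene, from RefSeq (GRCm38.p6), with the E2F-type letters in capitals.
Mcm7, chr5:138171884-138172063, minus strand: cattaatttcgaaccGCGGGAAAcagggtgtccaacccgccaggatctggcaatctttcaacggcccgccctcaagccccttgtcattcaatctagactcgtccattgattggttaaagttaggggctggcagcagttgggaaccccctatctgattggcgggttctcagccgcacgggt
Pola1, chrX:93632156-93632335, minus strand: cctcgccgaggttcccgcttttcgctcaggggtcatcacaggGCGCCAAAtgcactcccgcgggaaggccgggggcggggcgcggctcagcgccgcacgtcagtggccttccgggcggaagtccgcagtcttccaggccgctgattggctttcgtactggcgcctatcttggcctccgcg
Mcm6, chr1:128359706-128359885, minus strand: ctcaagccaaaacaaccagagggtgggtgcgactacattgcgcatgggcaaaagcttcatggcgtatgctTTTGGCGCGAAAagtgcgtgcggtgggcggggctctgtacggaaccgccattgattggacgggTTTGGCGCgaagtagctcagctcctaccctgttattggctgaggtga
Rfc3, chr5:151651209-151651388, minus strand: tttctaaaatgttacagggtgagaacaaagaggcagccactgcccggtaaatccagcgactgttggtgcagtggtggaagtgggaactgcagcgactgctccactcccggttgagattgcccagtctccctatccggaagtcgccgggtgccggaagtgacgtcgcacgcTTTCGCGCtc
These stretches were picked from windows with the motif, so its presence in each was set by that choice. Among all 13 members with a match, 10 fell and 2 rose with LPS in wild type, against 30.9% and 21.3% of all genes. In the stretches of Mcm7 and Pola1 the motif stood as 1 match, which ended 158 and 131 bases before the start. That of Mcm6 had 3 matches, of which an overlapping pair is read from opposite strands, and that of Rfc3 had 1, which began 10 bases before the start. Over the whole of these windows, Mcm7 and Rfc3 had 2 matches each, the second of them at or after the start and so outside the printed letters. Another RefSeq window of Mcm7 had 0 matches.

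Among the licensing factors, the loader Cdt1 and most helicase subunits fell, whereas only Orc1 of the 3 origin recognition subunits passed the test on the probe sets used. The loader Cdc6 also passed as lower and is counted here, but all its values lay under the array medians. In wild type 7 of 11 fell and 1 rose, and in Tpl2-deficient cells 6 fell and 1 rose. Mcm7, a subunit of the Mcm2-7 ring, had 9.89 and 10.08 in unstimulated wild type, 9.74 and 9.85 in unstimulated Tpl2-deficient cells, 6.97 and 7.11 in LPS-treated wild type and 7.15 and 7.47 in LPS-treated Tpl2-deficient cells. No LPS array came near an unstimulated one, and the fall was 7.71-fold in wild type (-2.95 ± 0.13, limma adjusted p = 8.8e-09) and 5.59-fold in Tpl2-deficient cells (-2.48 ± 0.13, adjusted p = 3.33e-08). Its 3 other probe sets fell too, with differences from -2.17 to -1.002 in wild type and from -2.03 to -0.87 in Tpl2-deficient cells. Mcm3 had 9.17 in both unstimulated wild-type arrays, 9.02 and 9.002 in Tpl2-deficient ones, 7.25 and 7.36 with LPS in wild type and 7.43 and 7.82 with LPS in Tpl2-deficient cells. The groups were again wide apart, with falls of 3.64-fold (-1.87 ± 0.13, adjusted p = 2.86e-07) and 2.6-fold (-1.38 ± 0.13, adjusted p = 3.85e-06). Of its 4 other probe sets, the 2 brighter ones fell in both genotypes and the 2 dimmer ones, with means of 6.68 and 5.96, did not pass in either.

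The remaining ring subunits were not uniform. Mcm2 fell by 0.88 ± 0.19 and 1.00 ± 0.19 in the order wild type, Tpl2-deficient, and Mcm4 by 1.12 ± 0.15 and 0.79 ± 0.15. Mcm5 fell by 0.63 ± 0.15 in wild type, and its difference in Tpl2-deficient cells was -0.36 ± 0.15 (limma adjusted p = 0.0856). The wild-type call for Mcm5 was lost without the second unstimulated wild-type array (adjusted p = 0.0513) or the first LPS-treated wild-type array (adjusted p = 0.0506) and with repeated quantile normalization (adjusted p = 0.0514), and 1 of its other probe sets, with a mean of 5.20, rose by 0.36 ± 0.13. Mcm6 went the other way from its partners. It had 10.62 and 10.63 in unstimulated wild type, 10.45 and 10.40 in unstimulated Tpl2-deficient cells, 10.81 and 10.91 with LPS in wild type and 10.72 and 10.97 with LPS in Tpl2-deficient cells. Both LPS groups lay above their controls, but on this probe set only the difference in Tpl2-deficient cells passed (0.42 ± 0.11, 1.34-fold, adjusted p = 0.00906, against 0.23 ± 0.11 and adjusted p = 0.0984 in wild type). The call was lost without the second unstimulated Tpl2-deficient array (adjusted p = 0.0623) and with spike-in centring (0.21, adjusted p = 0.24). A second Mcm6 probe set, with a mean of 9.62, rose in both genotypes (0.53 ± 0.13, adjusted p = 0.006, and 0.71 ± 0.13, adjusted p = 0.000963).

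Cdt1, the helicase loader that geminin inhibits, had 12.26 and 12.22 in unstimulated wild type, 12.00 and 11.99 in unstimulated Tpl2-deficient cells, 11.43 and 11.53 with LPS in wild type, and 10.23 and 10.58 with LPS in Tpl2-deficient cells. The 4 groups did not overlap, and the LPS-treated Tpl2-deficient arrays were the lowest. Cdt1 fell 1.70-fold in wild type (-0.77 ± 0.12, limma adjusted p = 0.000281) and 3.0-fold in Tpl2-deficient cells (-1.59 ± 0.12, adjusted p = 9.03e-07). Cdc6, the ATPase that recruits Cdt1, had 5.78 and 5.95 in unstimulated wild type, 6.07 and 5.69 in unstimulated Tpl2-deficient cells, 4.82 and 4.91 with LPS in wild type and 4.71 and 4.60 with LPS in Tpl2-deficient cells. Both LPS groups lay lower (-1.003 ± 0.13, adjusted p = 6.06e-05, and -1.22 ± 0.13, adjusted p = 1.44e-05). All 8 values are under the array medians, so expression of Cdc6 was not shown. Orc1, the ATPase subunit of the origin recognition complex, had 7.03 and 6.73 in unstimulated wild type, 7.16 and 6.91 in unstimulated Tpl2-deficient cells, 7.41 and 7.35 with LPS in wild type and 7.50 and 7.19 with LPS in Tpl2-deficient cells. It rose in wild type (0.50 ± 0.14, 1.41-fold, adjusted p = 0.0118) and did not pass in Tpl2-deficient cells (0.31 ± 0.14, adjusted p = 0.105). The rise was lost without the second unstimulated wild-type array (adjusted p = 0.12) or the first LPS-treated one (adjusted p = 0.0634). It was also lost with the mean of its probe sets (0.26, adjusted p = 0.0573) and with spike-in centring (0.36, adjusted p = 0.0718). The probe sets used for the other 2 origin recognition subunits did not pass in either genotype, with -0.12 and -0.05 for Orc2 and -0.24 and 0.18 for Orc6. Another Orc2 probe set, with a mean of 7.50, fell in both (-0.47 ± 0.11, adjusted p = 0.0035, and -0.36 ± 0.11, adjusted p = 0.0193).

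Of the helicase activation factors, Mcm10, which helps to start unwinding, rose in both genotypes. It had 6.73 and 6.66 in unstimulated wild type, 6.61 and 6.74 in unstimulated Tpl2-deficient cells, 7.86 and 8.07 with LPS in wild type and 7.72 and 7.95 with LPS in Tpl2-deficient cells. All 4 LPS arrays were above all 4 unstimulated ones, with rises of 2.41-fold (1.27 ± 0.12, limma adjusted p = 3.72e-06) and 2.23-fold (1.16 ± 0.12, adjusted p = 9.44e-06). Gins1, a GINS subunit, had 7.58 and 7.59 in unstimulated wild type, 7.27 and 7.08 in unstimulated Tpl2-deficient cells, 7.36 and 7.28 with LPS in wild type and 7.74 and 7.64 with LPS in Tpl2-deficient cells. The order of the genotypes was thus opposite without and with LPS. Gins1 rose with LPS in Tpl2-deficient cells (0.52 ± 0.11, 1.43-fold, adjusted p = 0.00193) and did not pass in wild type (-0.27 ± 0.11, adjusted p = 0.0526). With spike-in centring the rise in Tpl2-deficient cells did not pass (0.31, adjusted p = 0.0651). Its partner Gins2 fell slightly, by 0.40 ± 0.11 in wild type and by 0.32 ± 0.11 in Tpl2-deficient cells. The first call was lost without the second unstimulated (adjusted p = 0.0655) or the first LPS-treated wild-type array (adjusted p = 0.0942), and the second without any 1 of 7 arrays (adjusted p from 0.0516 to 0.152). With repeated quantile normalization neither passed (-0.15, adjusted p = 0.344, and -0.16, adjusted p = 0.325). In Tpl2-deficient cells Gins2 did not pass either with its probe sets averaged (adjusted p = 0.0589), array-median centring (adjusted p = 0.0515), array weights (adjusted p = 0.0887), its 4 arrays alone (adjusted p = 0.0889) or without _x_at and _s_at probe sets (-0.16, adjusted p = 0.274). Cdc45 did not pass in either genotype (0.19 ± 0.13 and 0.07 ± 0.13).

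The clamp was not shown to change, while 3 of its 5 loader subunits fell and 1 or 2 rose. Pcna had 13.25 and 13.33 in unstimulated wild type, 13.13 and 13.21 in unstimulated Tpl2-deficient cells, 13.49 and 13.52 with LPS in wild type and 13.44 and 13.36 with LPS in Tpl2-deficient cells. The LPS arrays lay slightly above their controls without passing (0.22 ± 0.10, limma adjusted p = 0.0853, and 0.23 ± 0.10, adjusted p = 0.0815). Rfc1, the large loader subunit, fell by 1.00 ± 0.11 in wild type and by 0.80 ± 0.11 in Tpl2-deficient cells, and Rfc2 fell by 1.26 ± 0.10 and 1.03 ± 0.10.

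Rfc3, a small loader subunit, rose in both genotypes. Its values were 7.58 and 7.86 in unstimulated wild type, 7.56 and 7.41 in unstimulated Tpl2-deficient cells, 8.55 and 8.55 with LPS in wild type and 9.26 and 9.23 with LPS in Tpl2-deficient cells. The unstimulated, LPS-treated wild-type and LPS-treated Tpl2-deficient levels did not overlap, with the LPS-treated Tpl2-deficient arrays highest. Rfc3 rose 1.78-fold in wild type (0.83 ± 0.12, limma adjusted p = 9.81e-05) and 3.40-fold in Tpl2-deficient cells (1.76 ± 0.12, adjusted p = 2.34e-07), and its second probe set rose by 1.02 ± 0.10 and 2.00 ± 0.10. Rfc4 had 7.44 and 7.57 in unstimulated wild type, 7.11 and 7.25 in unstimulated Tpl2-deficient cells, 6.20 and 5.78 with LPS in wild type and 6.75 and 6.48 with LPS in Tpl2-deficient cells. It fell in both, at least 2.86-fold in wild type (-1.51 ± 0.15, adjusted p = 5.04e-06) and 1.48-fold in Tpl2-deficient cells (-0.56 ± 0.15, adjusted p = 0.00901). The latter call was lost without the second unstimulated (adjusted p = 0.0676) or the second LPS-treated Tpl2-deficient array (adjusted p = 0.074). Rfc5 had 8.47 and 8.48 in unstimulated wild type, 8.37 and 8.34 in unstimulated Tpl2-deficient cells, 8.15 and 8.36 with LPS in wild type and 8.68 and 9.004 with LPS in Tpl2-deficient cells. Only the Tpl2-deficient LPS arrays stood above the rest (0.48 ± 0.12, 1.40-fold, adjusted p = 0.00803), and the wild-type difference was -0.22 ± 0.12 (adjusted p = 0.164). With spike-in centring the rise in Tpl2-deficient cells was 0.28 and did not pass (adjusted p = 0.148).

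Of the 7 polymerase and primase subunits, the same 5 fell in both genotypes and 0 rose. Pole2, the second subunit of polymerase epsilon, had 8.21 and 8.25 in unstimulated wild type, 7.78 and 7.95 in unstimulated Tpl2-deficient cells, 5.48 and 5.42 with LPS in wild type and 5.84 and 6.22 with LPS in Tpl2-deficient cells. It went from above to under the array medians, falling at least 6.89-fold in wild type (-2.78 ± 0.13, limma adjusted p = 1.39e-08) and at least 3.57-fold in Tpl2-deficient cells (-1.84 ± 0.13, adjusted p = 4.19e-07). Its second probe set had a mean of only 3.63 and did not fall in wild type (-0.05 ± 0.12). Prim1, the catalytic primase subunit, had 8.05 and 7.88 in unstimulated wild type, 7.84 and 7.92 in unstimulated Tpl2-deficient cells, 6.36 and 6.51 with LPS in wild type and 6.67 and 6.87 with LPS in Tpl2-deficient cells. It fell at least 2.90-fold (-1.53 ± 0.11, adjusted p = 5.98e-07) and 2.16-fold (-1.11 ± 0.11, adjusted p = 9.96e-06). Pola1, the catalytic subunit of polymerase alpha, fell by 1.23 ± 0.15 and 0.66 ± 0.15, Prim2 by 0.83 ± 0.12 and 0.42 ± 0.12, and Pold1, the catalytic subunit of polymerase delta, by 0.76 ± 0.11 and 0.55 ± 0.11, each in the order wild type, Tpl2-deficient. The Prim2 call in Tpl2-deficient cells was lost without the first unstimulated (adjusted p = 0.122) or the first LPS-treated Tpl2-deficient array (adjusted p = 0.0995), and also with the mean of its probe sets (-0.10, adjusted p = 0.403), repeated quantile normalization (-0.29, adjusted p = 0.0762) and array weights (adjusted p = 0.0597). Another of its probe sets rose in wild type (0.46 ± 0.12). Pola2 and Pole, the catalytic subunit of polymerase epsilon, passed in neither genotype, with -0.12 and 0.02 for Pola2 and -0.23 and -0.04 for Pole. Of 2 dimmer Pola2 probe sets, 1 rose in wild type (0.36) and the other fell in both (-0.42 and -0.44).

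The 2 measured subunits of replication protein A, which coats single-stranded DNA, did not move together. Rpa1 had 11.0035 and 11.07 in unstimulated wild type, 10.98 and 11.01 in unstimulated Tpl2-deficient cells, 9.15 and 9.11 with LPS in wild type and 9.71 and 9.89 with LPS in Tpl2-deficient cells. Both LPS groups were far under their controls, with the wild type lower, and the falls were 3.76-fold (-1.91 ± 0.10, limma adjusted p = 4.22e-08) and 2.29-fold (-1.20 ± 0.10, adjusted p = 2.16e-06). Rpa2 had 8.29 and 8.37 in unstimulated wild type, 8.12 and 8.14 in unstimulated Tpl2-deficient cells, 8.46 in both LPS-treated wild-type arrays and 7.63 and 7.82 with LPS in Tpl2-deficient cells. It fell in Tpl2-deficient cells (-0.41 ± 0.10, 1.32-fold, adjusted p = 0.00764) and did not pass in wild type (0.13 ± 0.10, adjusted p = 0.312). The fall was lost without the second unstimulated Tpl2-deficient array (adjusted p = 0.0506), and a second probe set rose in wild type (0.36 ± 0.12, adjusted p = 0.0283) and fell in Tpl2-deficient cells (-0.41 ± 0.12, adjusted p = 0.0188). Lig1, which seals Okazaki fragments, fell by 0.90 ± 0.13 and 0.60 ± 0.13. Fen1, the nuclease that trims the flaps of these fragments, fell by 0.34 ± 0.10 in wild type and did not pass in Tpl2-deficient cells (-0.18 ± 0.10). The Fen1 call was lost without the second unstimulated (adjusted p = 0.0868) or the second LPS-treated wild-type array (adjusted p = 0.08). Its other probe set showed a much larger contrast, with a fall of 1.45 ± 0.12 in wild type and a difference of 0.01 ± 0.12 in Tpl2-deficient cells.

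The nucleotide enzymes fell or did not pass. Dut, the dUTPase that keeps uracil out of DNA, had 7.57 and 7.62 in unstimulated wild type, 7.28 and 7.21 in unstimulated Tpl2-deficient cells, 6.45 and 6.02 with LPS in wild type and 7.08 and 6.89 with LPS in Tpl2-deficient cells. The wild-type arrays dropped below all others, by at least 2.57-fold (-1.36 ± 0.14, limma adjusted p = 6.71e-06), while the Tpl2-deficient difference did not pass (-0.26 ± 0.14, adjusted p = 0.158). Rrm1, the large subunit of ribonucleotide reductase, fell by 0.92 ± 0.12 and 0.74 ± 0.12, and Tk1, the thymidine kinase of S phase, fell by 1.13 ± 0.19 and 0.97 ± 0.19. Rrm2, the small reductase subunit, had 6.07 and 6.03 in unstimulated wild type, 5.57 and 6.17 in unstimulated Tpl2-deficient cells, 5.71 and 5.35 with LPS in wild type and 5.57 and 5.65 with LPS in Tpl2-deficient cells. All 8 values are under the array medians. The wild-type difference passed (-0.52 ± 0.18, adjusted p = 0.0291) and was lost without any 1 of 5 arrays (adjusted p from 0.0504 to 0.22). The 2 other Rrm2 probe sets fell more, by 2.29 ± 0.21 and 1.45 ± 0.28 in wild type and by 1.46 ± 0.21 and 1.09 ± 0.28 in Tpl2-deficient cells. The first of them had a group mean above the array medians in unstimulated wild type only (6.91, against 4.62 with LPS, both log2 levels). All other group means of both lay under the medians. Tyms, thymidylate synthase, had 4.29 and 4.23 in unstimulated wild type, 4.30 and 4.31 in unstimulated Tpl2-deficient cells, 4.42 and 4.51 with LPS in wild type and 4.51 and 4.21 with LPS in Tpl2-deficient cells. The groups overlapped, nothing passed, and expression of Tyms was not shown on this probe set. Of its other probe sets, 1 with a mean of 4.27 rose in Tpl2-deficient cells (0.46 ± 0.12, adjusted p = 0.00878).

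Among the S phase regulators, the activating E2F factors fell while cyclin E1 rose. E2f1 had 9.35 and 9.26 in unstimulated wild type, 9.11 and 8.72 in unstimulated Tpl2-deficient cells, 7.95 and 7.77 with LPS in wild type and 7.60 and 7.95 with LPS in Tpl2-deficient cells. The LPS arrays of both genotypes overlapped each other and lay under all controls, with falls of 2.71-fold (-1.44 ± 0.15, limma adjusted p = 1.02e-05) and 2.21-fold (-1.14 ± 0.15, adjusted p = 8.11e-05). A second E2f1 probe set also fell in both, and the dimmest, with a mean of 6.81, gave 0.37 ± 0.16 and 0.30 ± 0.16 and did not pass. E2f2 had 8.97 and 8.38 in unstimulated wild type, 8.67 and 8.51 in unstimulated Tpl2-deficient cells, 7.01 and 6.92 with LPS in wild type and 6.97 and 7.12 with LPS in Tpl2-deficient cells. Its falls were 3.27-fold (-1.71 ± 0.16, adjusted p = 4.54e-06) and 2.92-fold (-1.55 ± 0.16, adjusted p = 1.25e-05). Ccne1, the cyclin that activates Cdk2 at the start of S phase, had 7.89 and 8.32 in unstimulated wild type, 7.93 and 7.66 in unstimulated Tpl2-deficient cells, 9.53 and 9.47 with LPS in wild type and 9.82 and 10.13 with LPS in Tpl2-deficient cells. All LPS arrays lay above all controls. Ccne1 rose 2.63-fold in wild type (1.39 ± 0.16, adjusted p = 1.77e-05) and 4.51-fold in Tpl2-deficient cells (2.17 ± 0.16, adjusted p = 5.28e-07), and a second probe set rose by 2.12 and 2.53. Ccne2 lay under the array medians in all groups and did not pass (0.08 ± 0.13 and 0.26 ± 0.13).

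**Figure D2:**
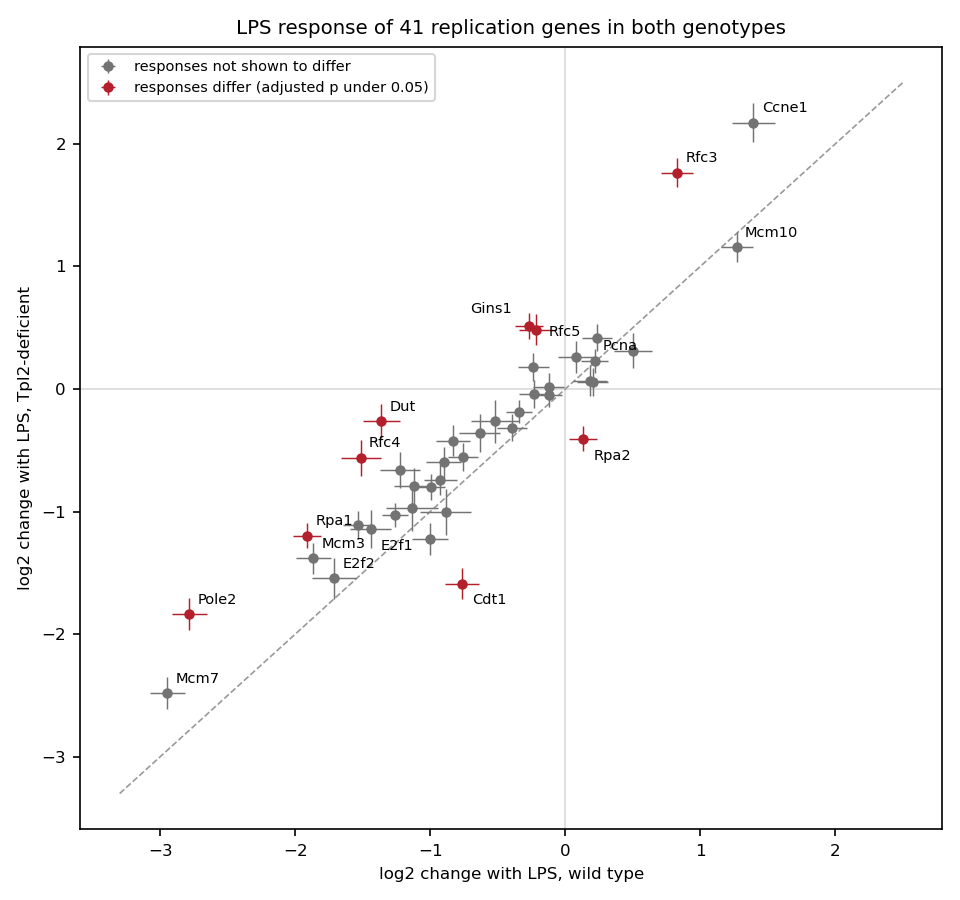
Each point is 1 member, with its log2 change with LPS in wild type on the horizontal axis and in Tpl2-deficient cells on the vertical axis. Bars are standard errors and the dashed line marks equal change. The 9 red members, among them Dut, Rfc3, Rfc4 and Cdt1, are those whose 2 responses differed at a limma adjusted p under 0.05.

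Without LPS 0 members passed the test between the genotypes, while most differences were slightly below 0. For 0 of 41 members the difference passed limma's test in either direction, as 0.346% of all genes were lower and 0.154% higher. At an unadjusted p under 0.05 there were 6 members, and 13.4% of all genes. The member median was -0.12, where that over all genes was 0.00, and it was -0.02 with spike-in centring. The difference was below 0 for 32 of 41 members, as for 50.9% of all genes. Both Tpl2-deficient arrays lay under both wild-type arrays for 24 members (29.2% of all genes) and above them for 4 (23.9%). The smallest adjusted p was that of Gins1 (-0.41 ± 0.11, adjusted p = 0.149), the gene that passed when arrays were weighted by their variability. The 95% intervals of the members lay between -0.72, the lower bound for E2f1, and 0.53, the upper bound for Cdc45. For scale, M phase genes also had a lower median in Tpl2-deficient cells without LPS (-0.47, 0 of 19 past the test). Their mean level was 8.71 ± 0.44 (SD, n = 2) in unstimulated wild type and 8.22 ± 0.31 in unstimulated Tpl2-deficient cells. Replicate 2 had the higher mean in both of these groups, which the fit did not take into account. All 19 differences were below 0, the arrays did not overlap for 11 of the 19, and 8 had an unadjusted p under 0.05.

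With LPS, 7 members stood higher and 2 lower in Tpl2-deficient than in wild-type cells, against 8.01% and 5.73% of all genes. The higher ones were Dut, Rfc3, Rpa1, Rfc4, Rfc5, Pole2 and Gins1, and the lower ones were Cdt1 and Rpa2. Dut was at least 1.68-fold higher (0.75 ± 0.14, limma adjusted p = 0.00361), its LPS-treated wild-type arrays at 6.45 and 6.02 lying under both Tpl2-deficient ones at 7.08 and 6.89. Rfc3 was 1.62-fold higher (0.70 ± 0.12, adjusted p = 0.00194) and Rpa1 1.59-fold higher (0.67 ± 0.10, adjusted p = 0.00114). Both differences were also found on their second probe sets, with 0.84 ± 0.10 for Rfc3 and 0.67 ± 0.13 for Rpa1, while the second Dut probe set, with a mean of 6.11, gave 0.21 ± 0.13 and did not pass. Rfc4 was at least 1.55-fold higher (0.63 ± 0.15, adjusted p = 0.0153) and Rfc5 1.5-fold higher (0.59 ± 0.12, adjusted p = 0.00868). Pole2 differed by 0.58 ± 0.13 (adjusted p = 0.0118), with both groups under the array medians, and Gins1 by 0.37 ± 0.11 (adjusted p = 0.0381). In the other direction, Cdt1 was 2.10-fold lower (-1.07 ± 0.12, adjusted p = 0.000139) and Rpa2 1.67-fold lower (-0.74 ± 0.10, adjusted p = 0.000562). Second probe sets gave -1.12 ± 0.15 for Cdt1 and -0.87 ± 0.12 for Rpa2. The most strongly lowered member, Mcm7, was not shown to differ between the genotypes under LPS (0.27 ± 0.13, adjusted p = 0.228), nor were Pcna (-0.11 ± 0.10), Rrm2 (0.08 ± 0.18), Tyms (-0.11 ± 0.12), E2f1 (-0.09 ± 0.15) or Ccne1 (0.47 ± 0.16, adjusted p = 0.0758).

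Single probe sets aside, the calls for Dut, Rfc3, Rpa1, Cdt1 and Rpa2 stayed past the threshold under every alternative run other than the 2-fold minimum. That minimum left Cdt1 of the 9 (1.5% of all genes were lower by as much). The Gins1 call was lost without any 1 of 7 arrays, with adjusted p from 0.0518 to 0.227. It was also lost with the mean of its probe sets (0.20, adjusted p = 0.202), spike-in centring (adjusted p = 0.0537), array weights (adjusted p = 0.135) and the 4 LPS arrays alone (adjusted p = 0.106). Rfc4 did not pass without the second LPS-treated wild-type array (adjusted p = 0.163) or the first LPS-treated Tpl2-deficient one (adjusted p = 0.0929), nor with array weights (adjusted p = 0.0781), and its second probe set gave 0.46 ± 0.15 (adjusted p = 0.0721). Rfc5 did not pass without the first LPS-treated wild-type array (adjusted p = 0.0991), and Pole2 without either of that group's arrays (adjusted p = 0.0583 and 0.0909) or with the mean of its probe sets (0.15, adjusted p = 0.455). Fen1, which did not pass on the probe set used (0.29 ± 0.10, adjusted p = 0.0714), was higher in Tpl2-deficient cells by 1.12 ± 0.12 on its other one. Likewise second probe sets of Mcm4 (0.53 ± 0.13) and Prim1 (0.44 ± 0.12) passed where the ones used did not.

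**Figure D3:**
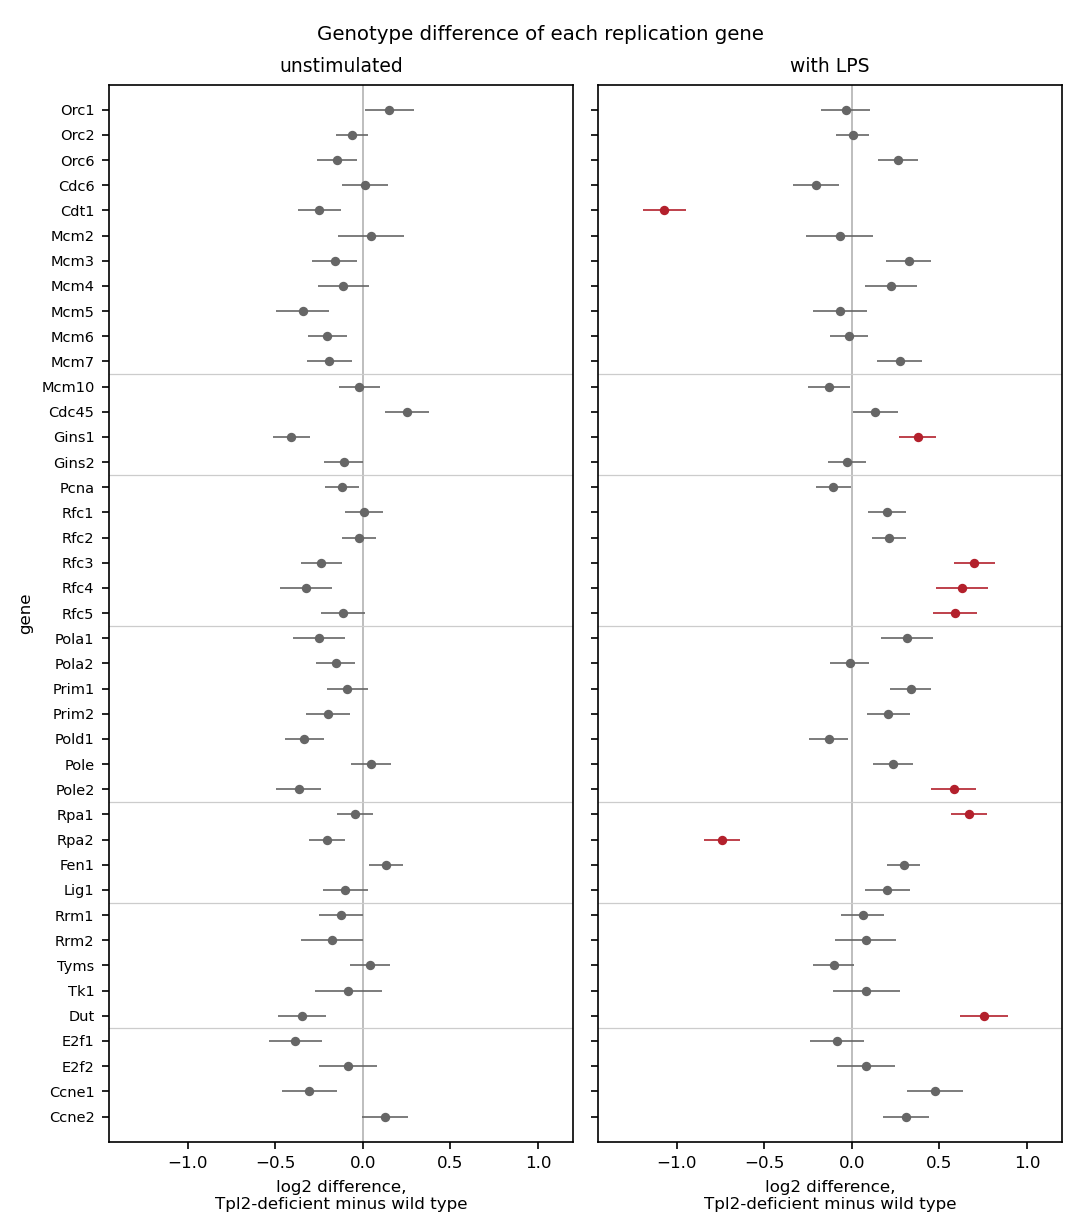
The log2 difference of Tpl2-deficient minus wild-type cells is shown for all 41 members, without LPS and with it. Bars are standard errors from the limma fit, and red marks a limma adjusted p under 0.05. Without LPS no member passed the test, and with LPS the 9 members that passed include Cdt1 and Rpa2 below 0 and 7 above it.

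The test of the difference between the 2 LPS responses passed for the same 9 members, 7 with a higher and 2 with a lower value in Tpl2-deficient cells, against 5.72% and 2.87% of all genes. Both tests use the LPS-treated arrays, so these are not separate pieces of evidence. The value was 1.10 ± 0.19 for Dut (limma adjusted p = 0.00532), 0.95 ± 0.21 for Rfc4 (adjusted p = 0.0171), 0.95 ± 0.18 for Pole2 (adjusted p = 0.00909) and 0.94 ± 0.16 for Rfc3 (adjusted p = 0.00517). The first 3 of these rest on a wild-type LPS level under the array medians. Gins1 had 0.79 ± 0.15 (adjusted p = 0.0084), Rpa1 0.71 ± 0.15 (adjusted p = 0.0119) and Rfc5 0.70 ± 0.18 (adjusted p = 0.0326). Cdt1 had -0.82 ± 0.17 (adjusted p = 0.0146) and Rpa2 -0.54 ± 0.15 (adjusted p = 0.0462). For Rfc4, Pole2 and Rpa1 the positive value meant a smaller fall in Tpl2-deficient cells, and for Rfc3 a larger rise. For Dut it meant a fall that passed the test in wild type only, and for Gins1 and Rfc5 a rise found in Tpl2-deficient cells. For Cdt1 the negative value meant a larger fall. Of the 21 members lower in both genotypes, 18 had the smaller fall in Tpl2-deficient cells and 3 the larger. The matching share among all genes lower in both was not computed. Fewer of all genes also fell in Tpl2-deficient cells (25.8%) than in wild type (30.9%). The value was above 0 in 33 of 41 members, with 51.3% of all genes above 0. The median was 0.20, where that over all genes was 0.01. This value also takes in the unstimulated groups, where 32 members were below 0 in Tpl2-deficient cells.

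Most of these 9 calls were close to the threshold. Single probe sets aside, Dut and Rfc3 passed under every alternative run, except that the 2-fold minimum left Dut alone (1.28% of all genes were higher by as much). The second Dut probe set gave 0.23 and did not pass. Pole2 passed without each array in turn and was lost with the mean of its probe sets (0.31, limma adjusted p = 0.254). Gins1 was lost without the second unstimulated Tpl2-deficient array (adjusted p = 0.0547), and Rfc4 without the second unstimulated wild-type (adjusted p = 0.0773), the first unstimulated Tpl2-deficient (adjusted p = 0.0716) or the second LPS-treated wild-type array (adjusted p = 0.073). Cdt1 and Rpa1 were lost without the second array of either wild-type group or either unstimulated Tpl2-deficient array (adjusted p from 0.0565 to 0.0715 for Cdt1 and from 0.0505 to 0.0638 for Rpa1). Rfc5 and Rpa2 were lost without any 1 of the 6 arrays other than the LPS-treated Tpl2-deficient ones (adjusted p from 0.0533 to 0.13 and from 0.113 to 0.159). Rpa2 was also lost with array-median centring (adjusted p = 0.0685) and with spike-in centring (adjusted p = 0.0718). Spike-in centring also ended the calls of Rfc5 (adjusted p = 0.0994) and Rpa1 (adjusted p = 0.051), and the mean of probe sets that of Cdt1 (-0.61, adjusted p = 0.0505). Ccne1 missed the threshold (0.78 ± 0.22, adjusted p = 0.055), as did Mcm7 (0.46 ± 0.18, adjusted p = 0.155). Other probe sets gave 1.46 ± 0.17 for Fen1, 0.98 ± 0.22 for Mcm2 and 0.72 ± 0.17 for Prim1, all past the test, where the ones used for Fen1 and Mcm2 gave 0.16 ± 0.14 and -0.12 ± 0.27.

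**Figure D4:**
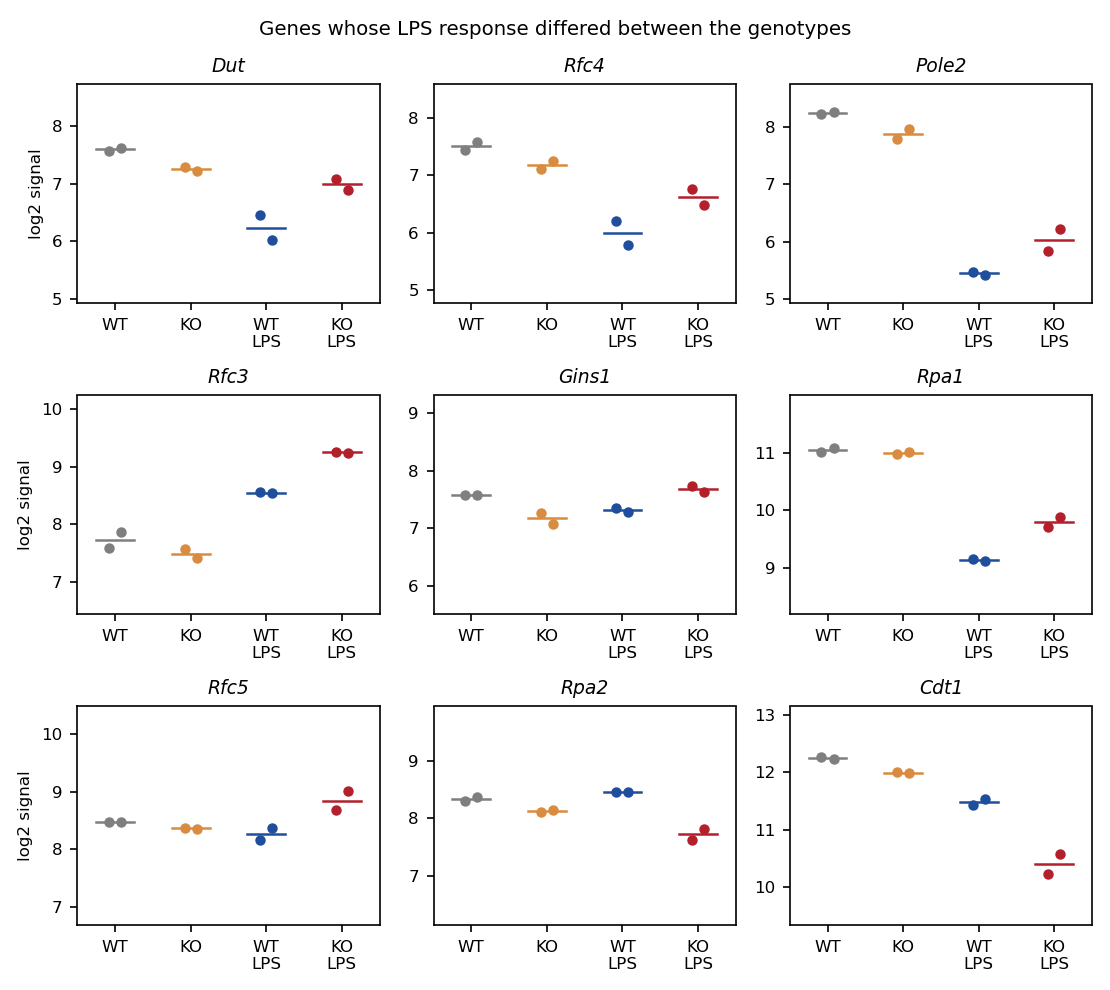
The log2 level in each of the 8 arrays is shown for the 9 members whose LPS responses differed between genotypes. Points are arrays, horizontal lines are group means, WT is wild type and KO is Tpl2-deficient. Rfc3 is highest and Cdt1 lowest in LPS-treated Tpl2-deficient cells, and Dut is lowest in LPS-treated wild type.

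Genes that work with the members were listed by function. Their LPS counts stand against the 30.9% of all genes lower and 21.3% higher in wild type and the 25.8% and 16% in Tpl2-deficient cells. Their genotype counts under LPS stand against 8.01% of all genes higher and 5.73% lower in Tpl2-deficient cells. Of 16 other licensing and initiation genes, 8 fell and 3 rose in wild type and 7 fell and 4 rose in Tpl2-deficient cells. Gmnn, which encodes the Cdt1 inhibitor geminin, fell 8.63-fold in wild type (-3.11 ± 0.12) and 7.16-fold in Tpl2-deficient cells (-2.84 ± 0.12), while Mcmbp, a partner of the Mcm ring, rose by 1.40 ± 0.12 and 0.87 ± 0.12. Of 23 measured fork and polymerase genes, 17 fell and 2 rose in wild type and 12 fell and 3 rose in Tpl2-deficient cells. Dna2, a nuclease of Okazaki fragments, fell at least 10.8-fold and by 4.69-fold, and the maintenance methylase Dnmt1 fell 5.04-fold and 5.16-fold. Timeless, a fork protection protein, rose 5.56-fold in wild type and 2.84-fold in Tpl2-deficient cells. Under LPS, 5 fork genes were above and 3 below the wild type in Tpl2-deficient cells. Rpa3, the third replication protein A subunit, was higher like Rpa1 (0.95 ± 0.14, limma adjusted p = 0.00101), and topoisomerase gene Top1 was 2.47-fold lower (-1.30 ± 0.10, adjusted p = 5.61e-06).

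Of the genes of nucleotide metabolism outside the members, most fell. Of 23 measured other nucleotide genes, 18 fell and 2 rose in wild type, and 15 fell and 2 rose in Tpl2-deficient cells. The 2 that rose were Samhd1, the phosphohydrolase that degrades deoxynucleotides, and Dck, the deoxycytidine kinase of the salvage pathway. Samhd1 had 11.50 and 11.47 in unstimulated wild type, 11.49 and 11.35 in unstimulated Tpl2-deficient cells, 13.95 and 14.02 with LPS in wild type and 13.83 and 13.90 with LPS in Tpl2-deficient cells. It rose 5.68-fold and 5.43-fold (2.51 ± 0.10, limma adjusted p = 4.27e-09, and 2.44 ± 0.10, adjusted p = 5.1e-09), with no overlap between LPS and control arrays and no genotype difference past the test. Dck rose 4.57-fold and 4.33-fold, and the mitochondrial kinase gene Tk2 fell 4.57-fold and 4.70-fold. Under LPS, 2 of the 23 exceeded wild type in Tpl2-deficient cells, against 8.01% of all genes. They were Dtymk and Ppat, of thymidylate and purine synthesis (0.40 ± 0.11 and 0.56 ± 0.16).

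Several of 29 other regulators of G1 and S phase differed between the genotypes under LPS. Of the 29, 12 fell and 8 rose with LPS in wild type, and 14 fell and 7 rose in Tpl2-deficient cells. Under LPS, Tpl2-deficient cells had 4 above and 6 below the wild type, against 8.01% and 5.73% of all genes. Ccnd2, encoding cyclin D2, had 6.66 and 5.60 in unstimulated wild type, 6.16 and 6.02 in unstimulated Tpl2-deficient cells, 12.02 and 12.04 with LPS in wild type and 9.74 and 9.47 with LPS in Tpl2-deficient cells. It rose at least 59.8-fold in wild type and at least 11.4-fold in Tpl2-deficient cells, and was 5.39-fold lower in the latter under LPS (-2.43 ± 0.25, limma adjusted p = 7.04e-05). Ccnd1, encoding cyclin D1, had 9.82 and 9.69 in unstimulated wild type, 9.31 and 9.53 in unstimulated Tpl2-deficient cells, 9.56 and 9.86 with LPS in wild type and 7.93 and 8.04 with LPS in Tpl2-deficient cells. It fell 2.71-fold with LPS in Tpl2-deficient cells (-1.44 ± 0.13), with -0.05 ± 0.13 in wild type, and the responses differed (-1.39 ± 0.18, adjusted p = 0.00082). Under LPS it was 3.30-fold lower in Tpl2-deficient cells. E2f8, a repressor of E2F targets, had 7.51 and 7.85 in unstimulated wild type, 7.52 and 7.48 in unstimulated Tpl2-deficient cells, 8.18 and 8.13 with LPS in wild type and 10.14 and 10.08 with LPS in Tpl2-deficient cells. It was 3.89-fold higher in the latter (1.96 ± 0.12, adjusted p = 1.35e-06).

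Among inhibitors and retinoblastoma family genes, Cdkn1a and Rbl1 rose and Rb1 fell in both genotypes. Cdkn1a, encoding the kinase inhibitor p21, rose 7.68-fold in wild type (2.94 ± 0.10) and 10.4-fold in Tpl2-deficient cells (3.38 ± 0.10), and its genotype difference under LPS did not pass (0.28 ± 0.10, limma adjusted p = 0.0878). Rbl1, which encodes the pocket protein p107, rose 6.80-fold and 10.5-fold, whereas Rb1 itself fell 2.56-fold and 2.19-fold, and Tfdp2, an E2F partner, fell at least 8.61-fold and at least 6.35-fold. Myc differed by -0.32 ± 0.14 in wild type, short of the threshold, fell by 0.63 ± 0.14 in Tpl2-deficient cells and was 1.69-fold lower there under LPS. Cdkn1b (-0.34 ± 0.20 and 0.22 ± 0.20) and the repressor gene E2f4 (0.21 ± 0.10 and 0.04 ± 0.10) did not pass with LPS in either genotype. Ccnd3, Rbl2 and Cdkn2d were singled out after their values were seen. Under LPS Ccnd3 was 2.45-fold lower, Cdkn2d 2.18-fold lower and Rbl2 1.76-fold higher in Tpl2-deficient cells.

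**Figure D5:**
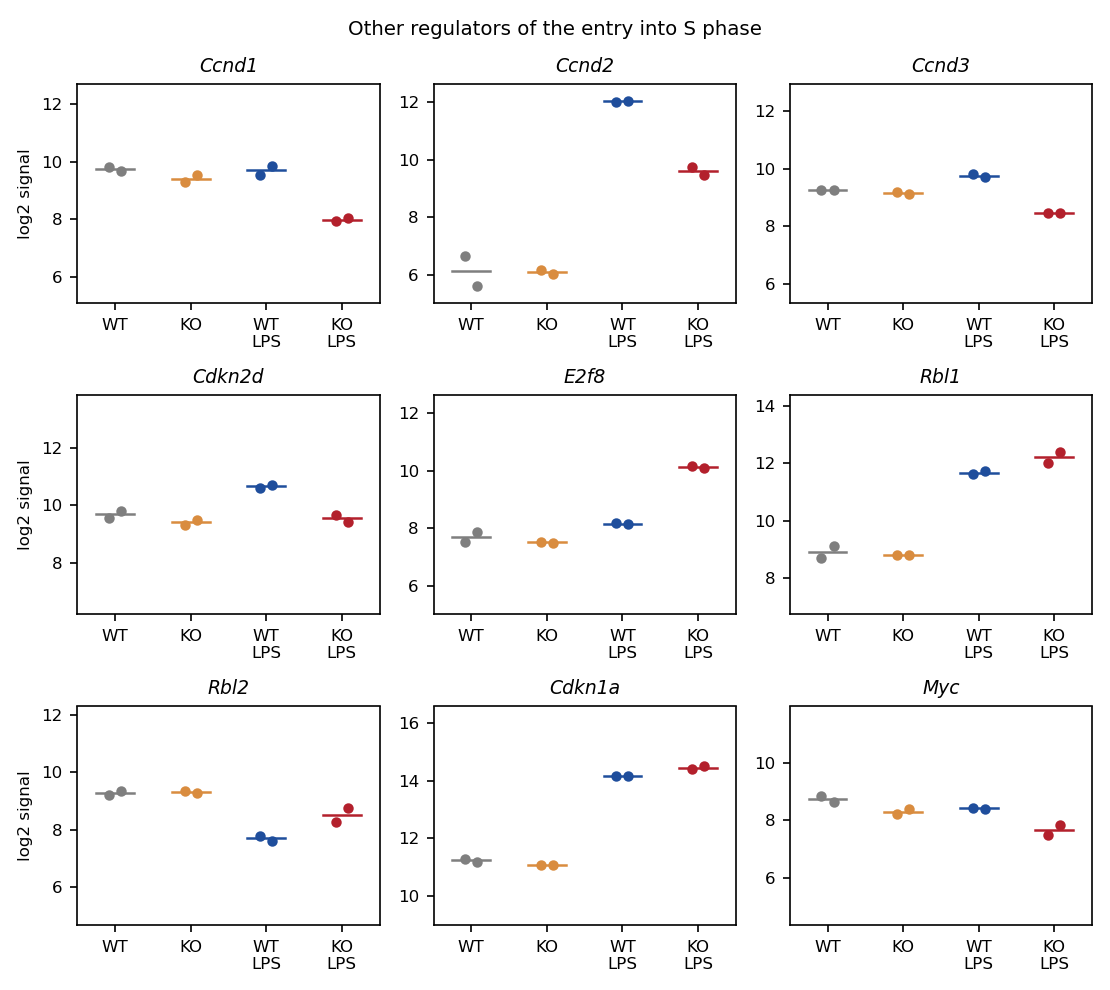
The log2 level in each array is shown for 9 further G1 and S phase regulators, with points for arrays, lines for group means, WT for wild type and KO for Tpl2-deficient. Each panel spans the same log2 range. Ccnd1, Ccnd2 and Ccnd3 are lower, and E2f8 higher, in LPS-treated Tpl2-deficient than in LPS-treated wild-type cells.

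Genes of M phase and of the S phase checkpoint completed the comparison. Of 19 measured M phase genes, 11 fell and 1 rose with LPS in wild type, and 8 fell and 3 rose in Tpl2-deficient cells. The proliferation marker Mki67 had 9.84 and 10.47 in unstimulated wild type, 9.45 and 10.12 in unstimulated Tpl2-deficient cells, 10.49 and 10.75 with LPS in wild type and 11.34 and 11.48 with LPS in Tpl2-deficient cells. It rose in Tpl2-deficient cells (1.62 ± 0.23, limma adjusted p = 0.000121), did not pass in wild type (0.46 ± 0.23, adjusted p = 0.11), and was the 1 M phase gene that differed under LPS (0.79 ± 0.23, adjusted p = 0.0421). The interaction test for Mki67 did not pass (1.16 ± 0.32, adjusted p = 0.0504). In every group its second array was the higher one, and Mki67 was not refitted with the replicate block. Of 17 measured checkpoint and repair genes, 7 fell and 1 rose in wild type and 6 fell and 0 rose in Tpl2-deficient cells, against 30.9% and 25.8% of all genes lower. The checkpoint kinase gene Chek2 fell at least 9.48-fold and at least 10.6-fold, and the mismatch repair gene Msh6 at least 8.09-fold and at least 5.38-fold. Atr, the kinase that responds to stalled forks, fell in wild type (-0.82 ± 0.13) and did not pass in Tpl2-deficient cells (-0.11 ± 0.13), a difference past the interaction test (0.72 ± 0.18, adjusted p = 0.0319). Without LPS 0 genes of these lists passed the genotype test.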

How the data were processed

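Bone-marrow macrophages were measured on 8 Affymetrix arrays, 2 in each of 4 groups set by genotype and LPS. The deposited values are log2 intensities. GCOS and RMA are named, without versions, per the submitters' processing notes. The chip definition file and genome build are not given in the sources used here. Symbols come from the platform annotation, which can be old: 34945 of 45101 probe sets carry exactly 1 symbol, 932 several and 9160 none, and 64 are controls. The brightest probe set by mean stood for a gene.

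Group differences came from limma 3.58.1 under R 4.3.3, with lmFit, eBayes and two-sided tests, 1 mean per group, 4 residual and 6.87 prior degrees of freedom, over 5 comparisons. The fit assumes a gene's spread to be equal in all groups. The pairwise comparisons were tried on simulated data, and the interaction test was not. The simulation gave all groups the same spread for a gene. It could not check calls that rest on the more variable LPS-treated Tpl2-deficient arrays. There the median SD over all genes was 0.13, against 0.06 to 0.07 in the other groups. The members, the lists and the choice to print promoters were made with earlier results of these data known. Values in every array are given, per comparison, for the 6 largest rises and 6 largest falls past the test, members against the main direction, those past the interaction test, and Mcm7, Pcna, Rrm2, Tyms, E2f1 and Ccne1. From other lists, up to 3 genes past the test per comparison and a fixed set were named. The marking of low values with "at least" and the fit of each probe set on its own were added after seeing the data.

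Alternatives were the mean of a gene's probe sets, leaving out _x_at and _s_at probe sets, repeated quantile normalization, centring on 18 spike-in probe sets or on array medians, a filter on low genes, a variance trend, a robust prior, weighting arrays, fitting only the 4 arrays of a comparison, requiring 2-fold, blocking on the replicate number and omitting each array in turn. Deviations of same-numbered arrays from their group means correlated between -0.12 and 0.10 over the group pairs, so the main fit did not take the numbers as pairs. Even so, the mean of the M phase genes was higher in replicate 2 in every group. In unstimulated cells it was 8.40 and 9.02 in wild type and 7.99 and 8.44 in Tpl2-deficient cells. With LPS it was 7.90 and 8.32, and 7.81 and 8.17, in the same order. The replicate block was reported for the members and not for the M phase genes.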

Additional observations from a re-analysis of the deposited data

Results flagged for a closer look

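The LPS response differed between the genotypes, by the interaction test in limma, for 9 members. The value, the log2 change in Tpl2-deficient minus that in wild-type cells, was 1.10 for Dut, 0.95 for Rfc4, 0.95 for Pole2, 0.94 for Rfc3, 0.79 for Gins1, 0.71 for Rpa1, 0.70 for Rfc5, -0.54 for Rpa2 and -0.82 for Cdt1. The 3 loader subunits Rfc3, Rfc4 and Rfc5 all had positive values although LPS raised Rfc3 and lowered Rfc4 in both genotypes. That sign was not particular to them, as 33 of 41 members had a positive value, whether past the test or not. The causes were not tested.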

How the results depend on the processing

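Of 198 counts of called members recomputed under the alternatives, 171 stayed within 1.5 times the value reported, and of 3784 single member values 3615 kept direction and call, 92 lost the call, 76 gained it and 1 turned. That 1 was the interaction value of Mcm2, 0.98 without _x_at and _s_at probe sets, where another probe set is used. The members lower by the interaction test numbered 1 in place of 2 with the mean of all probe sets, with spike-in centring, with centring on array medians and with the replicate block. Spike-in centring left 3 members higher with LPS in Tpl2-deficient cells, and array weights gave 1 member lower without LPS. The 2-fold minimum, which by its construction leaves fewer, gave 2 higher and 14 lower with LPS in wild type, 3 and 11 in Tpl2-deficient cells, 0 and 1 between genotypes under LPS, and 1 and 0 for the interaction. Leaving out 1 array gave 3 to 7 higher and 21 to 26 lower with LPS in wild type, 5 to 9 and 19 to 21 in Tpl2-deficient cells, 0 to 0 and 0 to 0 between genotypes without LPS, 4 to 10 and 2 to 2 under LPS, and 4 to 11 and 0 to 2 for the interaction. Where this left a group with 1 array, that array was assumed to vary like the other groups. The replicate block gave 4 higher and 25 lower with LPS in wild type, 7 and 22 in Tpl2-deficient cells, 7 and 2 under LPS and 7 and 1 for the interaction. The block ended the calls of Gins2 (limma adjusted p = 0.0531) with LPS in Tpl2-deficient cells and of Rpa2 (adjusted p = 0.0555) for the interaction, and it added those of Orc1 and Mcm5 with LPS in Tpl2-deficient cells. Where no construction is named, the cause was not tested. The 2 arrays per group and the lack of detection calls limit what low members such as Tyms, Ccne2 and Cdc6 can show.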
